A study of Mus musculus with 8 samples.

Results

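The 9 genes described here encode receptors that steer leukocytes towards chemokines and other attractants: the chemokine receptors Ccr1, Ccr3 and Cxcr4, the atypical chemerin-binding receptor Ccrl2, the chemerin receptor Cmklr1, the complement receptors C5ar1 and C3ar1, and the formyl peptide receptors Fpr1 and Fpr2. They were taken by symbol from a table of gene counts with 55376 genes, and all 9 were found in it. RNA was sequenced from macrophages grown from mouse bone marrow in 4 groups of 2 libraries. These were DNMT3A-HET (HET) macrophages given IL-6, HET control macrophages, wild-type (WT) macrophages given IL-6 and WT control macrophages. All marrow came from male mice aged 13 weeks, 3 of each genotype, and was cultured with 50 ng/mL M-CSF, the growth factor that drives macrophage differentiation. IL-6, an inflammatory cytokine, was added at 10 ng/mL on day 6 and left for 2 days, so that all cells were collected on day 8. The labels do not give the allele behind DNMT3A-HET, any promoter or Cre, the strain, or which mouse gave which library. What the p-values measure is thus how far these libraries scatter, and some of that scatter may be technical.

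Chemoattractant receptors are G protein-coupled receptors of the cell membrane. When a ligand binds, they activate inhibitory G proteins and, through them, phosphoinositide 3-kinase, calcium release and the small GTPases that remodel actin, after which arrestins and RGS proteins switch the signal off. In macrophages and monocytes the receptors for inflammatory chemokines guide entry into inflamed tissue, Cxcr4 answers to the homing chemokine Cxcl12, and receptors for complement fragments, chemerin and formyl peptides sense damage and bacteria. IL-6 signals through its receptor and gp130 to the transcription factor STAT3, and Dnmt3a encodes a DNA methyltransferase that places methyl groups on CpG sites.

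The stretches before the starts that RefSeq lists for these genes differ in how many CpG sites they hold. Those of 3 chemokine receptors are shown because the genotype concerns an enzyme that methylates such sites, and that of Fpr2 because it holds a motif of the kind that STAT factors bind. All 9 receptors were matched by symbol to RefSeq promoters on GRCm38.p6, and the windows are the 250 bases before a listed start, written 5′ to 3′ on the gene's own strand. CpG sites are in capitals for Ccr1 (chr9:123968693-123968942, minus strand), Ccr3 (chr9:124021721-124021970, plus strand) and Cxcr4 (chr1:128592300-128592549, minus strand). For Fpr2 (chr17:17887574-17887823, plus strand) the capitals mark a TTCNNNGAA motif.
Ccr1: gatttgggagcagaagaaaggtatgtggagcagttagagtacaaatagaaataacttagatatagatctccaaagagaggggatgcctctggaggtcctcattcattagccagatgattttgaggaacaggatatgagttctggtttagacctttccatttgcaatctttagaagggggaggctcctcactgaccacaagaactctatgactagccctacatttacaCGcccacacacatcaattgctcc
Ccr3: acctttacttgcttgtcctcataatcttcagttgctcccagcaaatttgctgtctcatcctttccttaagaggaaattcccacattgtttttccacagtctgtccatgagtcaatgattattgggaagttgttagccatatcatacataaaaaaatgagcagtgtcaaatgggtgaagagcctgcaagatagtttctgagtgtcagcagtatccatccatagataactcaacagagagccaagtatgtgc
Cxcr4: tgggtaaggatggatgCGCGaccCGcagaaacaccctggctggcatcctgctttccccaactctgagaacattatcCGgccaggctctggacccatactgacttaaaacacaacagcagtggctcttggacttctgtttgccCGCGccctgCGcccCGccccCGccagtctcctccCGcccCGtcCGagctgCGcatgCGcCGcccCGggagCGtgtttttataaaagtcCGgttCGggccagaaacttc
Fpr2: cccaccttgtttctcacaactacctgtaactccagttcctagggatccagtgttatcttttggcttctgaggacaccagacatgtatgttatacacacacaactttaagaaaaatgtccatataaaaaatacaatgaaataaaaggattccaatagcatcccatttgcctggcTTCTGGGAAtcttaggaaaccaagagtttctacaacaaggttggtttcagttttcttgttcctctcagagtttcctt

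Cxcr4 had 19 CpG sites in this window, more than 80.3% of the 32851 RefSeq promoters searched. Ccr1 and Fpr1 had 1 each, and Ccr3 and Fpr2 had 0, where the quartiles over all promoters were 2, 6 and 16. The windows of C5ar1, C3ar1 and Cmklr1 held 2, 5 and 5 CpG sites, and the 3 listed starts of Ccrl2 held 5, 6 and 7. The STAT-type palindrome TTCNNNGAA, which reads the same on both strands, was found in the window of Fpr2 only among the 9 genes, 77 bases before the start, and 7.02% of all promoters hold it. GAGGAA, the core that ETS-family factors such as the macrophage factor Spi1 bind, was searched on both strands and does not overlap the other motif. It was found in the windows of Ccr1, Ccr3, Cmklr1 and Fpr2, and in 23.3% of all promoters. The windows of Cmklr1, C5ar1 and 2 of the 3 Ccrl2 starts lie wholly or mostly inside the gene span given with the counts, which begins further upstream. These matches describe the letters of the windows, and neither methylation nor binding was measured.

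Library totals ran from 18926641 to 24881197 counts, other than 50137897 in library 2 of HET IL-6. Levels are given as counts relative to the size of the library (CPM), scaled by TMM, and 3 counts, the limit that a count of 0 allows, corresponded to 0.0608 to 0.161 CPM. Dnmt3a itself read 140 and 213 CPM in HET IL-6, 166 and 248 CPM in HET control, 174.5 and 183 CPM in WT IL-6, and 275 and 243.5 CPM in WT control libraries, and was not called between genotypes (HET against WT in control -0.32 ± 0.25 on the log2 scale, edgeR adjusted p = 0.506). Since the altered part of the gene is not given in the sources used here, its count need not show the genotype. The summed level of 8 macrophage markers was 11338 to 13659 CPM over all libraries. Of the 11 neutrophil markers, Ly6g had 0 counts in HET IL-6, WT IL-6 and WT control libraries. Csf3r and S100a9 were detected in each group, and the sum of the 11 is given with Fpr1 below.

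Per length of exon, the 6 most abundant receptors kept the same order in all 8 libraries. C5ar1, the receptor for the complement fragment C5a, was the most abundant at 284 to 338 CPM per kilobase and made up 34.9 to 39.2% of the summed level of the 9 receptors. C3ar1, the receptor for C3a, followed at 203 to 279 CPM per kilobase, then Cxcr4 at 110 to 197 and Ccrl2 at 72.8 to 108 CPM per kilobase. None of these 4 ranges overlapped another. Ccr1 ranged from 1.92 to 36.4 and Ccr3 from 1.30 to 12.6 CPM per kilobase, and these ranges overlapped each other, although Ccr1 was the higher in each library. Cmklr1 (0.324 to 0.827), Fpr2 (0.184 to 1.902) and Fpr1 (0 to 0.469 CPM per kilobase) were the lowest, and their order changed between libraries. Fpr1 was above Cmklr1 in 1 library, and Fpr2 was above Cmklr1 in 3.

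**Figure D1:**
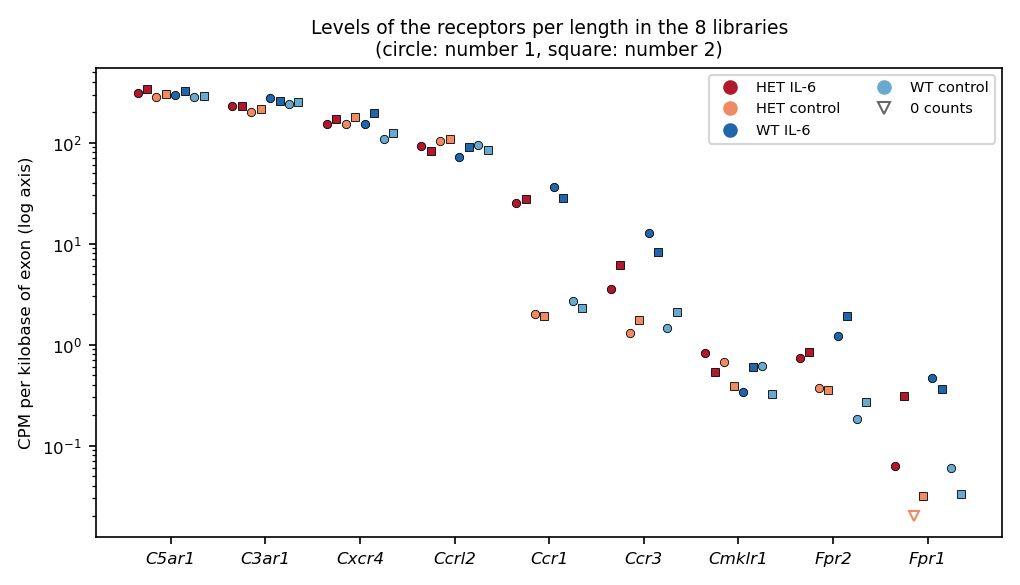
Level of each receptor per kilobase of exon in CPM on a log axis, with 1 point for each of the 8 libraries, coloured by group, and an open triangle for 0 counts. C5ar1, C3ar1, Cxcr4 and Ccrl2 form separate bands between 72.8 and 338 CPM per kilobase, while Ccr1, Ccr3, Fpr2 and Fpr1 spread widely with treatment.

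Ccr1 and Ccr3, receptors for inflammatory CC chemokines and, for Ccr3, the eotaxins, were higher after IL-6 in both genotypes, and Fpr2 rose in WT and in the average over genotype. The complement receptors C5ar1 and C3ar1 and the chemerin receptor Cmklr1 were called in neither genotype. A receptor counts as called when the adjusted p of the edgeR quasi-likelihood F test, over all 13721 tested genes, is under 0.05. In bulk RNA a change in the share of cells that carry a receptor and a change in its mRNA per cell cannot be told apart. In HET macrophages, IL-6 against control called 3 of the 9 receptors, Ccr1, Ccr3 and Fpr1, all higher, where 18.3% of all tested genes were called. In WT macrophages it called 5 of 9, Ccr1, Ccr3, Cxcr4, Fpr1 and Fpr2, all higher, and again 18.3% of all genes. Averaged over genotype, a comparison built from the other two and not independent of them, 5 receptors were higher and Ccrl2 was lower, where 23.6% of all genes were called. Fpr1 passed the filter on low counts only through the WT IL-6 libraries, the 2 that exceeded the limit of 0.417 CPM, and so had to differ there. Without Fpr1 the counts were 2 of 8 in HET, 4 of 8 in WT and 5 of 8 in the average. With total counts in place of TMM the calls in HET were 3 higher and 1 lower, the added one being Ccrl2.

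**Figure D2:**
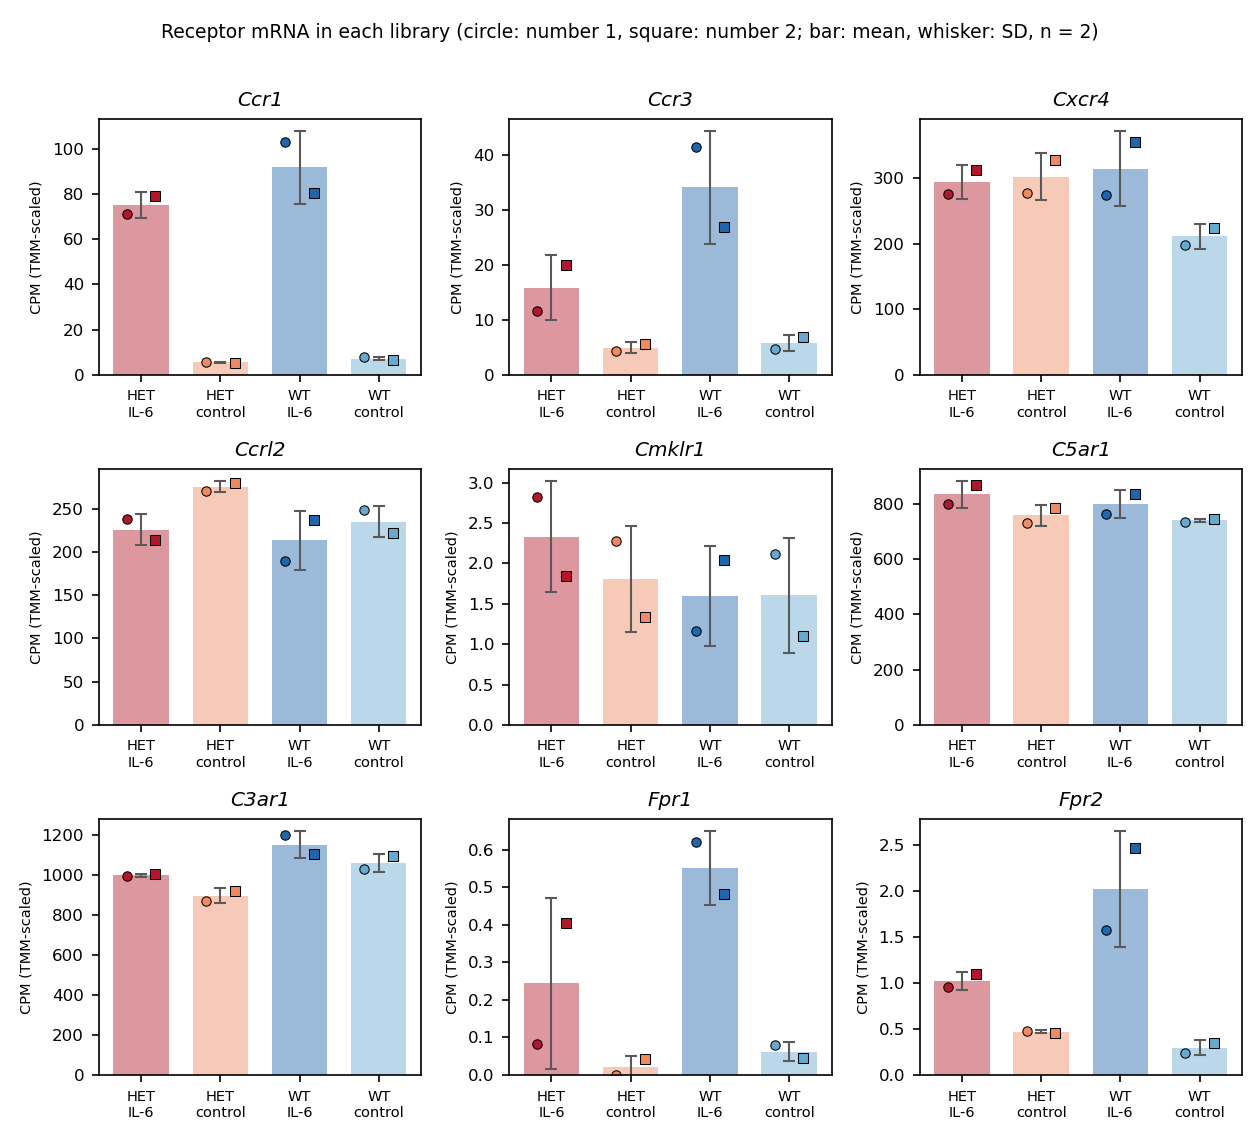
CPM of each receptor in each library, grouped as HET IL-6, HET control, WT IL-6 and WT control, with bars for the mean and whiskers for the SD over 2 libraries. Ccr1 is above 70 CPM in all 4 IL-6 libraries and below 8 CPM in all 4 control libraries, and Ccr3 shows the same separation with a wider spread between libraries.

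Ccr1 (ENSMUSG00000025804.5, chromosome 9, 123962124 to 123968692, mm10, minus strand), which binds Ccl3, Ccl5 and related chemokines, had 71.0 and 79.1 CPM in HET IL-6 libraries, against 5.69 and 5.44 CPM in HET control. It had 103 and 80.4 CPM in WT IL-6 libraries, against 7.69 and 6.575 CPM in WT control. Every IL-6 library was thus above every control library of either genotype. The fold was 13.5 in HET (log2 fold change 3.76 ± 0.14, edgeR adjusted p = 6.57e-10) and 12.9 in WT (3.69 ± 0.14, edgeR adjusted p = 5.74e-10). The fold ranked 14th of 13721 tested genes in HET and 12th in WT. Both calls held in each alternative run, with log2 fold changes of 3.64 to 3.87 in HET and 3.49 to 3.85 in WT.

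Ccr3 (ENSMUSG00000035448.9, chromosome 9, 124021972 to 124031689, mm10, plus strand), best known as the eotaxin receptor of eosinophils, had 11.65 and 19.99 CPM in HET IL-6 libraries and 4.24 and 5.69 CPM in HET control. In WT it had 41.35 and 26.8 CPM with IL-6 and 4.74 and 6.88 CPM in control. The groups did not overlap in either genotype, and the libraries of each IL-6 group differed from each other by more than those of the control groups. The log2 fold change was 1.70 ± 0.36 in HET (edgeR adjusted p = 0.0186) and 2.57 ± 0.35 in WT (edgeR adjusted p = 0.00257). The call in HET ended without HET control library 1 (edgeR adjusted p = 0.134) or 2 (0.0707), or WT control library 1 (0.0828) or 2 (0.0824), and with no filter on low counts (0.134). The call in WT ended without WT control library 1 (0.0915).

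Markers of other cells were read beside these receptors. Of 5 eosinophil markers, Epx, Prg3 and Il5ra had 0 counts in both HET groups, Epx, Prg2, Prg3 and Il5ra had 0 in WT IL-6, and Prg2 and Prg3 had 0 in WT control. The eosinophil sum was 0.284 to 0.290 CPM in HET IL-6, 0.418 to 0.612 in HET control, 0.214 to 0.455 in WT IL-6 and 0.359 to 0.618 in WT control libraries. Most of it was Siglecf, at 0.236, 0.388, 0.335 and 0.444 CPM on average in the same groups, from 17, 18, 15 and 21 counts. The part of eosinophils in the Ccr3 values was not tested. The sum of 5 monocyte markers, all detected in each group, was 13.5 to 16.2 CPM in HET IL-6, 3.77 to 5.91 in HET control, 27.7 to 37.6 in WT IL-6 and 6.09 to 13.5 in WT control libraries. In the IL-6 groups and in WT control most of it was Fn1, the fibronectin gene, which macrophages also express. In HET control Chil3 and Plac8, at 1.27 and 0.617 CPM on average, made up much of the rest. Fn1 averaged 12.9 CPM in HET IL-6, 2.42 in HET control, 30.3 in WT IL-6 and 7.82 in WT control, whereas the classical monocyte marker Ly6c2 averaged 0.0714, 0.235, 0.223 and 0.0840 CPM in the same groups. Of 4 endothelial markers, Emcn had 0 counts in each group, and the sum was 53.9 to 55.1 CPM in HET IL-6, 27.4 to 29.4 in HET control, 51.2 to 55.0 in WT IL-6 and 31.1 to 34.1 in WT control libraries, nearly all of it Kdr. The sums of the stromal, T and NK cell, B cell, dendritic, mast cell and erythroid markers were each at most 10.0 CPM. The part of cells that express Fn1 or Kdr in the receptor values was not tested.

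Cxcr4 (ENSMUSG00000045382.6, chromosome 1, 128588199 to 128592293, mm10, minus strand), the receptor for Cxcl12 and also for Mif, had 276 and 313 CPM in HET IL-6 libraries and 278 and 328 CPM in HET control. In WT it had 274 and 356 CPM with IL-6, against 198 and 224.5 CPM in control. The WT control libraries were the lowest of the 8, and the other 3 groups overlapped one another. The IL-6 change was -0.04 ± 0.12 in HET (95% interval -0.30 to 0.22, edgeR adjusted p = 0.872) and 0.58 ± 0.12 in WT (edgeR adjusted p = 0.00416). The call in WT ended without WT control library 1 (edgeR adjusted p = 0.108) and with offsets for GC content and length (0.0661) and in a replicate block fit with WT control numbers crossed (0.169). Averaged over genotype the change was 0.27 ± 0.09 (edgeR adjusted p = 0.0351). That call ended without any 1 of HET IL-6 library 2 (0.142), HET control library 1 (0.167), WT IL-6 library 2 (0.14), WT control library 1 (0.183) or WT control library 2 (0.0684), and with total counts (0.0701), GC and length offsets (0.159) or the crossed replicate block (0.278).

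Fpr2 (ENSMUSG00000052270.7, chromosome 17, 17887824 to 17893952, mm10, plus strand), a receptor for formylated peptides, annexin A1 and serum amyloid A, was low throughout. It had 0.953 and 1.09 CPM in HET IL-6 libraries, against 0.481 and 0.460 CPM in HET control, from 23, 54, 11 and 11 counts. In WT it had 1.57 and 2.465 CPM with IL-6, against 0.239 and 0.353 CPM in control, from 38, 46, 6 and 8 counts. The groups did not overlap in either genotype, and the WT IL-6 libraries were the highest. The log2 fold change was 1.13 ± 0.38 in HET (edgeR adjusted p = 0.055) and 2.74 ± 0.40 in WT (edgeR adjusted p = 2.39e-04). In HET Fpr2 gained a call in 5 of 17 alternatives, and its log2 fold change was 0.98 to 1.25 over all 17. From the summed counts alone, the ratio was 2.23 in HET (exact 95% interval 1.37 to 3.76) and 6.69 in WT (3.77 to 12.8), an interval that covers counting error only. Fpr2 is uncertain in absolute level, because 31.5% of its runs of 50 bases also occur in other transcripts, most of them in the predicted gene Gm5966, and 3.70% of its exon bases overlap Fpr3. Gm5966 and Fpr3 both had 0 counts over all libraries.

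Fpr1 (ENSMUSG00000045551.7, chromosome 17, 17876471 to 17883940, mm10, minus strand), the high-affinity formyl peptide receptor, was close to the limit of detection. It had 2 and 20 counts in HET IL-6 libraries, against 0 and 1 in HET control, and 15 and 9 counts in WT IL-6, against 2 and 1 in WT control. The summed counts gave a ratio of 14.0 in HET (exact 95% interval 2.26 to 578) and 8.92 in WT (2.71 to 46.3). These wide intervals are set by the few control counts. In HET nearly all IL-6 counts came from the most deeply sequenced library, and without it the edgeR adjusted p moved to 0.622, against 0.0444 with all libraries. That call also ended without HET control library 1 (0.284) or 2 (0.108) or WT IL-6 library 1 (0.0547) or 2 (0.054), and the call in WT (0.0211) ended without WT IL-6 library 1 (0.123) or WT control library 1 (0.0792) or 2 (0.0819). Averaged over genotype, edgeR gave an adjusted p of 0.00311 for Fpr1. Without HET IL-6 library 2 the averaged log2 change was 2.39, against 3.27 with all libraries, and the call ended. As Fpr1 passed the filter on low counts only through the WT IL-6 libraries, its p-values in WT and in the average rest in part on that selection. Neutrophils are the best known carriers of Fpr1, and the sum of 11 neutrophil markers was 21.7 to 26.8 CPM in HET IL-6, 17.4 to 17.7 in HET control, 13.9 to 19.9 in WT IL-6 and 18.2 to 24.4 in WT control libraries. Most of it was Csf3r, at 22.7, 14.8, 14.3 and 20.0 CPM on average in the same groups, and Csf3r was called higher with IL-6 in HET (0.61 ± 0.18, edgeR adjusted p = 0.0364), with a difference between the responses of HET and WT of 1.11 ± 0.26 (edgeR adjusted p = 0.0244). S100a9 of the same list went the other way and was called lower with IL-6 in HET (-1.05 ± 0.34, edgeR adjusted p = 0.0482). In WT it was called higher (1.45 ± 0.41, edgeR adjusted p = 0.0224), and its responses differed by -2.50 ± 0.53 (edgeR adjusted p = 0.0117). S100a8 and Ngp were called with IL-6 in neither genotype. The part of cells with these markers in the Fpr1 values was not tested.

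Ccrl2 (ENSMUSG00000043953.12, chromosome 9, 111054486 to 111057519, mm10, minus strand), which binds chemerin and presents it without signalling of its own, had 238 and 214 CPM in HET IL-6 libraries and 271 and 280 CPM in HET control. In WT it had 189 and 237.5 CPM with IL-6 and 248 and 222 CPM in control, which overlapped. It was the one receptor called lower in the average over genotype (-0.21 ± 0.07, edgeR adjusted p = 0.0479), and in neither genotype alone (HET -0.29 ± 0.10, edgeR adjusted p = 0.0721; WT -0.14 ± 0.10, edgeR adjusted p = 0.395). The call ended without any 1 of HET IL-6 library 1 (edgeR adjusted p = 0.0834) or 2 (0.251), HET control library 1 (0.102) or 2 (0.145), WT IL-6 library 1 (0.179) or WT control library 1 (0.115), and with DESeq2's size factors (0.0545) or the library number as a replicate block (0.115). In HET alone Ccrl2 gained a call in 7 of 17 alternatives, all with a lower level after IL-6.

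The complement and chemerin receptors were called by IL-6 in no comparison as fitted here, and C3ar1 gained a call in HET and in the average under 2 of 17 alternatives each. C5ar1 (ENSMUSG00000049130.6, chromosome 7, 16246743 to 16259540, mm10, minus strand), through which C5a draws phagocytes, had 799.8 and 868 CPM in HET IL-6 libraries, 731 and 785 CPM in HET control, 763 and 836 CPM in WT IL-6, and 735 and 744 CPM in WT control. Within each genotype the IL-6 libraries were above the controls, but by little, and the averaged change of 0.13 ± 0.06 was not called (95% interval -0.00073 to 0.25, edgeR adjusted p = 0.147). C3ar1 (ENSMUSG00000040552.8, chromosome 6, 122847138 to 122856161, mm10, minus strand) had 995 and 1005 CPM in HET IL-6 libraries, 872 and 923 CPM in HET control, 1201 and 1104 CPM in WT IL-6, and 1031 and 1094 CPM in WT control. Its averaged change was 0.14 ± 0.06 (95% interval 0.01 to 0.26, edgeR adjusted p = 0.101). Cmklr1 (ENSMUSG00000042190.12, chromosome 5, 113612354 to 113650426, mm10, minus strand), the signalling receptor for chemerin, had 2.82 and 1.84 CPM in HET IL-6 libraries, 2.275 and 1.34 CPM in HET control, 1.16 and 2.04 CPM in WT IL-6, and 2.11 and 1.10 CPM in WT control. All 4 groups overlapped, and the 95% interval of the averaged log2 change, -0.44 to 0.72, leaves room for a sizeable change either way.

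**Figure D3:**
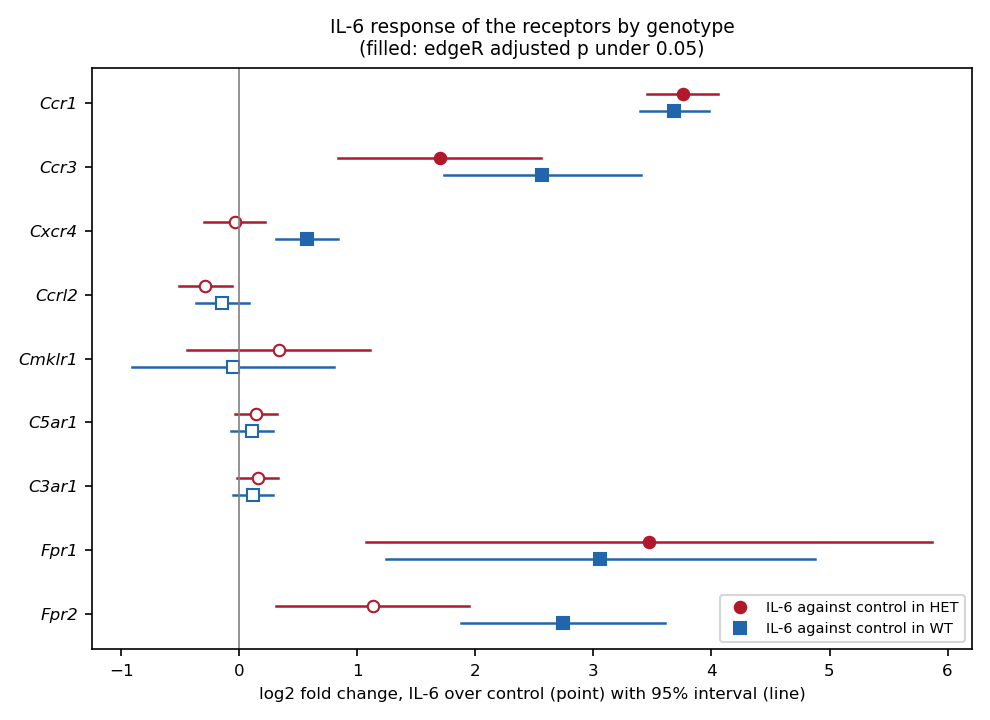
Log2 fold change of each receptor, IL-6 over control, as circles for HET and squares for WT with lines for the 95% interval, filled where the edgeR adjusted p is under 0.05. The intervals of Ccr1 lie above 3.39 in both genotypes, those of C5ar1 and C3ar1 reach no further than 0.33, and the circle and the square of Cxcr4 are apart by 0.61.

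Whether the IL-6 response differed between the genotypes was tested directly, as the HET response minus the WT response. Cxcr4 was the one receptor called (-0.61 ± 0.17, edgeR adjusted p = 0.0421), where 8.12% of all genes were called. The interval of this difference ran from -0.98 to -0.25. The call ended without any 1 of HET IL-6 library 1 (edgeR adjusted p = 0.181) or 2 (0.0675), HET control library 1 (0.0638) or 2 (0.172), WT IL-6 library 2 (0.113) or WT control library 1 (0.236) or 2 (0.0645), with offsets for GC content and length (0.189) and with the crossed replicate block (0.285). Without WT IL-6 library 1 it held. For Ccr1 the difference was 0.07 ± 0.20 (95% interval -0.35 to 0.49, edgeR adjusted p = 0.876). For Fpr2 it was -1.61 ± 0.59 (95% interval -2.87 to -0.36, edgeR adjusted p = 0.114) and for Ccr3 -0.87 ± 0.51 (95% interval -2.09 to 0.35, edgeR adjusted p = 0.388), so neither difference passed the threshold. For C5ar1 and C3ar1 the difference was 0.03 ± 0.12 and 0.04 ± 0.11.

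In control macrophages, HET against WT called Cxcr4 alone, higher in HET, where 4.85% of all genes were called. In IL-6 macrophages it called Ccr3 and Fpr2, both lower in HET, where 22% of all genes were called. Averaged over treatment it called Ccr1 and C3ar1, both lower in HET, where 19.9% of all genes were called. Counts of 1 or 2 among 9 receptors are near these shares of all genes, and nothing is read from them about the receptors as a set.

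Cxcr4 in control libraries was 278 and 328 CPM in HET, against 198 and 224.5 CPM in WT, without overlap (0.52 ± 0.12, edgeR adjusted p = 0.0297). The call ended without HET control library 1 (edgeR adjusted p = 0.0914) or 2 (0.215), without WT control library 1 (0.14) or 2 (0.108), and with offsets for GC content and length (0.136). With IL-6, where HET had 276 and 313 CPM and WT had 274 and 356 CPM, the difference was -0.09 ± 0.12 (95% interval -0.35 to 0.16, edgeR adjusted p = 0.612).

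Ccr3 with IL-6 was 11.65 and 19.99 CPM in HET, against 41.35 and 26.8 CPM in WT, a fold of 0.472 (-1.08 ± 0.31, edgeR adjusted p = 0.0466). The call ended without HET control library 1 (edgeR adjusted p = 0.0701) or 2 (0.0711), WT IL-6 library 1 (0.285), or WT control library 1 (0.121) or 2 (0.121). It also ended with no filter on low counts (0.242), with only the groups compared in the fit (0.175) and with GC and length offsets (0.125). In control libraries, HET had 4.24 and 5.69 CPM and WT had 4.74 and 6.88 CPM, which overlapped (-0.22 ± 0.41, edgeR adjusted p = 0.809).

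Fpr2 with IL-6 was 0.953 and 1.09 CPM in HET, against 1.57 and 2.465 CPM in WT, a fold of 0.521 (-0.94 ± 0.31, edgeR adjusted p = 0.0449). The call ended without HET IL-6 library 1 (edgeR adjusted p = 0.177) or 2 (0.153), HET control library 1 (0.0635) or 2 (0.0628), or WT IL-6 library 1 (0.0578) or 2 (0.276), with no filter on low counts (0.0559) and with GC and length offsets (0.118). In control libraries the point estimate had the other sign, with 0.481 and 0.460 CPM in HET and 0.239 and 0.353 CPM in WT, and was not called (0.67 ± 0.50, edgeR adjusted p = 0.464).

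Ccr1 was lower in HET than in WT in both treatments without overlap, by -0.33 ± 0.10 on the log2 scale averaged over treatment (a fold of 0.798, edgeR adjusted p = 0.0338). The call ended without HET IL-6 library 1 (edgeR adjusted p = 0.097) or 2 (0.0544), HET control library 1 (0.0884) or 2 (0.12), WT IL-6 library 1 (0.121) or WT control library 1 (0.0934), and in a fit with the library number as a replicate block (0.052). C3ar1 was lower by -0.22 ± 0.06 (a fold of 0.856, edgeR adjusted p = 0.0162), again without overlap in either treatment. Its call ended without HET IL-6 library 1 (edgeR adjusted p = 0.0713) or 2 (0.0702), HET control library 1 (0.0906) or 2 (0.0542) or WT IL-6 library 1 (0.0678). With offsets for GC content and length, Ccr1 moved to -0.11 (edgeR adjusted p = 0.583) and C3ar1 to -0.08 (0.274), and these offsets took the genes called in the averaged genotype comparison to 327, against 2729 without them.

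**Figure D4:**
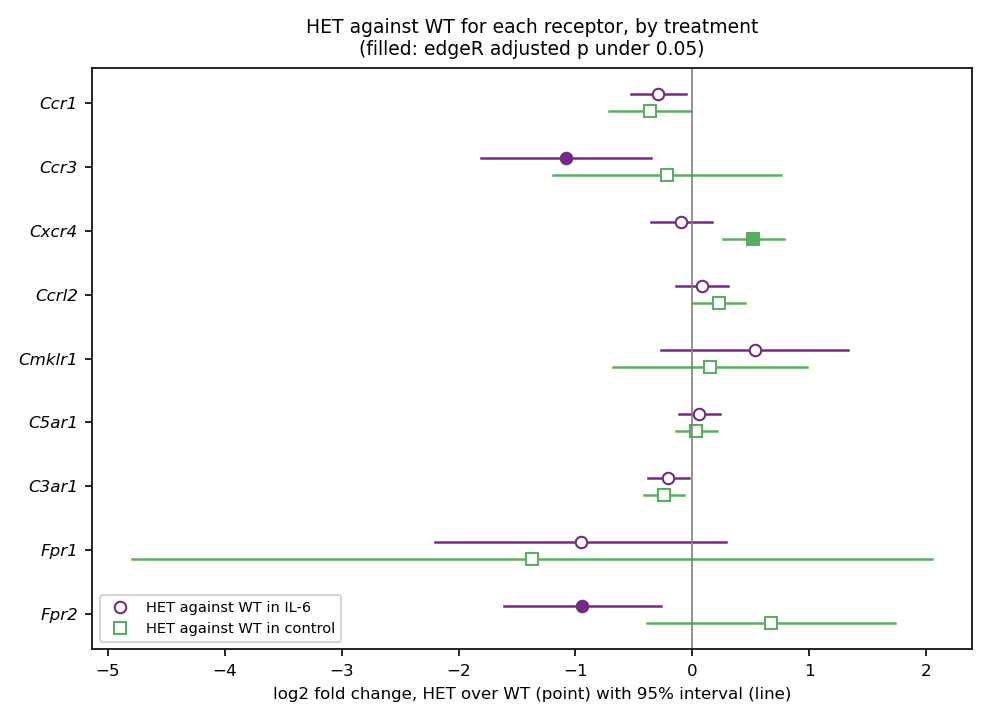
Log2 fold change of each receptor, HET over WT, as circles with IL-6 and squares in control with lines for the 95% interval, filled where the edgeR adjusted p is under 0.05. Filled points are Ccr3 and Fpr2 with IL-6, at -1.08 and -0.94, and Cxcr4 in control, at 0.52.

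The other chemokine receptors were read from a list of 19, of which 8 passed the filter. With IL-6 averaged over genotype, 2 of them were higher and 2 lower, with a median log2 change of -0.11, beside a median of 0.27 over the 9 receptors described and -0.01 over all tested genes. Of all genes, 1484 (10.8%) were higher and 1759 (12.8%) lower, and with total counts in place of TMM 1193 were higher and 2234 lower. Ccr2, the receptor of classical monocytes for Ccl2 and Ccl7, was higher with IL-6 (0.58 ± 0.12, edgeR adjusted p = 0.00608) and lower in HET than in WT averaged over treatment (-0.56 ± 0.12, edgeR adjusted p = 0.013). The fractalkine receptor Cx3cr1 averaged 27.5 ± 3.7 CPM in HET IL-6, 159.8 ± 50 in HET control, 89.1 ± 14 in WT IL-6 and 63.5 ± 18 in WT control (SD, n = 2 each), and its response differed between genotypes by -3.05 ± 0.43 (edgeR adjusted p = 0.0154).

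Of 19 other chemoattractant receptors, 11 passed the filter, with a median log2 change of 0.11 with IL-6 averaged over genotype. Of these, 4 were higher and 2 lower, where 10.8% of all genes were higher and 12.8% lower. Ltb4r1, the high-affinity leukotriene B4 receptor, averaged 11.2 ± 0.6 CPM in HET IL-6, 0.316 ± 0.32 in HET control, 9.83 ± 0.72 in WT IL-6 and 0.352 ± 0.12 in WT control, and was the only receptor of these lists with a larger change than Ccr1 (4.94 ± 0.23, edgeR adjusted p = 1.44e-09). Cysltr1, a receptor for cysteinyl leukotrienes, rose by 0.71 ± 0.08 (edgeR adjusted p = 8.51e-06), and the nucleotide receptor P2ry2 by 0.33 ± 0.07 (edgeR adjusted p = 0.00401).

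**Figure D5:**
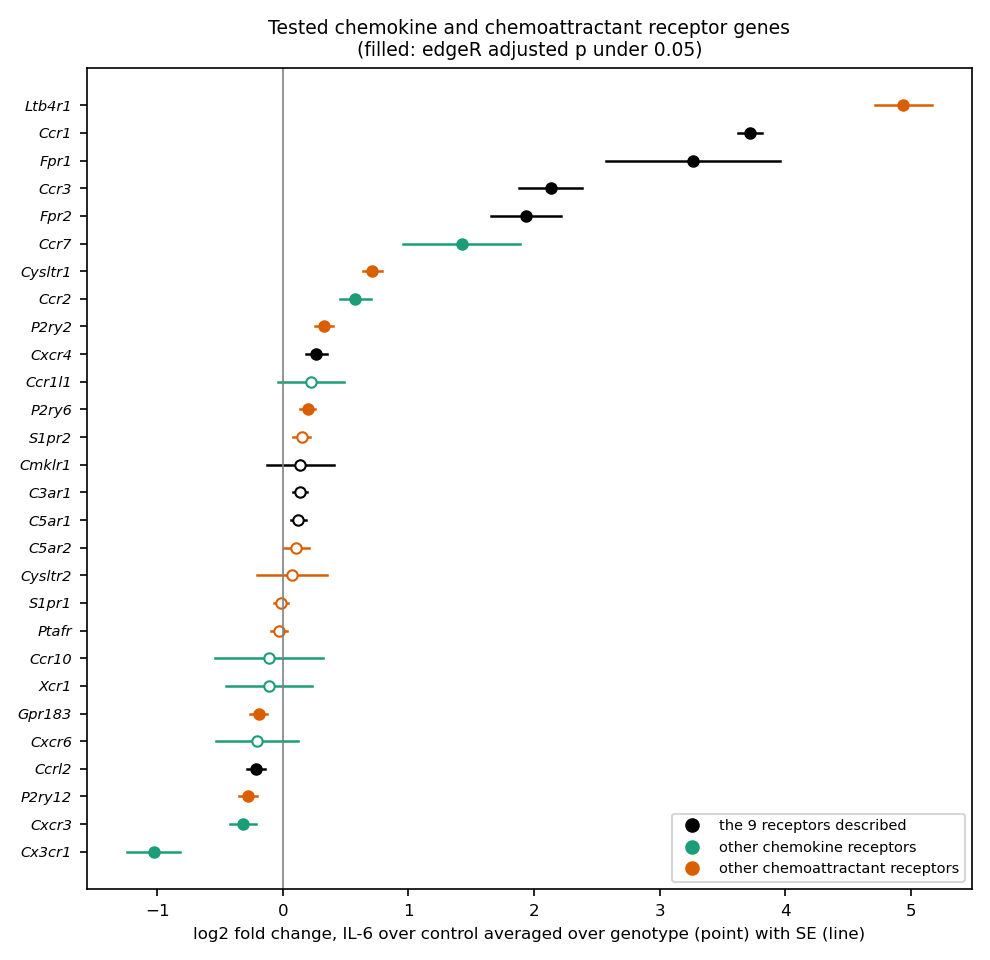
Log2 fold change, IL-6 over control averaged over genotype, of the tested chemokine and chemoattractant receptor genes of these lists in order of size, with lines for the SE, black for the 9 receptors described, filled where the edgeR adjusted p is under 0.05. Ltb4r1 at 4.94, Ccr1 at 3.72, Fpr1, Ccr3 at 2.13 and Fpr2 at 1.94 lead the plot, and Cx3cr1 at -1.03 is at its foot. Fpr1 passed the filter on low counts only through the WT IL-6 libraries.

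Ligands of the 9 receptors were read from a list of 18, of which 11 passed the filter. With IL-6 averaged over genotype, 6 were higher and 3 lower, where 10.8% of all genes were higher and 12.8% lower. The median log2 change of the ligands was 0.20. Ccl8 had the largest rise of the list (5.33 ± 0.19, edgeR adjusted p = 1.08e-10). It averaged 24.4 ± 3.5 CPM in HET IL-6 and 0.320 ± 0.081 in HET control. In WT it averaged 12.5 ± 2.9 CPM with IL-6 and 0.561 ± 0.11 in control. Ccl6 rose by 0.41 ± 0.07 (edgeR adjusted p = 3.95e-04), and was called in HET but not in WT. Among ligands of Ccr1, Ccl7 averaged 624 ± 20 CPM in HET IL-6, 261 ± 14 in HET control, 523 ± 21 in WT IL-6 and 351 ± 11 in WT control (0.92 ± 0.06, edgeR adjusted p = 2.94e-08), and Ccl9 rose by 0.20 ± 0.06 (edgeR adjusted p = 0.0282). In the other direction, Ccl5 (-1.43 ± 0.16, edgeR adjusted p = 1.38e-05), Ccl3 (-0.54 ± 0.10, edgeR adjusted p = 0.00136) and Ccl4 (-0.46 ± 0.10, edgeR adjusted p = 0.00388) fell. The receptor and its ligands thus did not move in 1 direction. Among Ccr3 ligands, Ccl11 had 0 counts in all groups other than WT control, where it averaged 0.0199 CPM. Ccl24, also a ligand of Ccr3, averaged 0.256 CPM in HET IL-6, 0.215 in HET control, 0.371 in WT IL-6 and 0.2035 in WT control. Cxcl12, the ligand of Cxcr4, averaged 0.0608 CPM in HET IL-6, 0.0637 in HET control, 0.287 in WT IL-6 and 0.248 in WT control, near the limit of detection.

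Of the other Cxcr4 ligand, Mif, HET IL-6 libraries averaged 72.6 ± 7.8 CPM and WT IL-6 libraries 36.7 ± 3.6 CPM, a difference of 0.98 ± 0.10 (edgeR adjusted p = 7.04e-05). C3, whose product is cleaved to the C3ar1 ligand, was higher in HET than in WT averaged over treatment by 0.62 ± 0.09 (edgeR adjusted p = 6.66e-04), while C3ar1 itself was lower there. Hc, which encodes complement C5, had 0 counts in both IL-6 groups and in WT control. The chemerin gene Rarres2 averaged 0.0268 to 0.0861 CPM over the groups. Of the Fpr2 ligands, Anxa1 was abundant at 775.6 ± 30 CPM in HET IL-6, 788.5 ± 24 in HET control, 1005 ± 80 in WT IL-6 and 770.6 ± 40 in WT control, and Saa3 was scarce, at 2.83, 0.504, 1.46 and 0.564 CPM in the same groups, and rose with IL-6 by 1.904 ± 0.36 (edgeR adjusted p = 0.00131).

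Of 30 genes that carry the signal of these receptors, all were tested, with a median log2 change of -0.05 with IL-6 averaged over genotype. Of these, 3 were higher and 7 lower, where 10.8% of all genes were higher and 12.8% lower. The Src-family kinase Fgr (2.46 ± 0.20, edgeR adjusted p = 4.53e-07) and the Rac activator Vav1 (0.63 ± 0.06, edgeR adjusted p = 3.76e-06) rose. Rgs1 (-0.66 ± 0.08, edgeR adjusted p = 2.88e-05) and Rgs10 (-0.33 ± 0.06, edgeR adjusted p = 6.08e-04), which end G protein signalling, fell. Averaged over treatment, 9 of the 30 were higher and 5 lower in HET than in WT, where 11.9% of all genes were higher and 7.99% lower. Among those called were the G protein subunit Gnb2 (0.45 ± 0.06, edgeR adjusted p = 3.69e-04) and the Rac activator Prex1 (0.33 ± 0.06, edgeR adjusted p = 0.00176), both higher. Offsets for GC content and length took all genes called in this comparison from 2729 to 327. Alternatives were read for the 9 receptors only, so no call of the other receptors, ligands or signalling genes was checked in this way.

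The genes whose log2 CPM followed each receptor most closely over the 8 libraries were taken from 9507 tested genes that reached 5 CPM in the mean of any group, and Pearson's r is given as a description over libraries that share their groups. For Ccr1 these were Fgl2 and Ms4a6d, both with r = 0.997. For Ccr3 they were Asph (0.996) and Htr2b (0.994), and for Cxcr4 Tnfsf9 (0.975) and Cyth1 (0.966). For C5ar1 they were Slc31a2 (0.976) and Unc13a (0.955), for C3ar1 Mff (0.985) and Cd48 (0.983), and for Ccrl2 Ccdc86 (0.979) and Prkcd (0.965).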

How the data were processed

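The authors deposited raw gene counts (whole-number counts per gene, not normalized) for 8 libraries. Per the submitters' processing notes reads were handled on mm10 with the tools featureCounts 1.6.2, SAMtools 1.9, STAR 2.7.9a and fastp 0.12.4. The strand setting of the counting is not given in the sources used here. Multi-mapped or overlapping reads could split or drop counts, which bears on Fpr2. In R 4.3.3, edgeR 4.0.16 fitted a quasi-likelihood F test (robust, TMM scaling, 4 residual degrees of freedom, 2-sided) to all 8 libraries and 4 groups. Before the fit, filterByExpr with a minimum count of 10 left 13721 genes. Benjamini-Hochberg adjustment was made over these genes within each of the 7 comparisons, and not across comparisons. A log2 fold change carries its SE after the ± sign, and a mean CPM its SD. Alternatives included DESeq2 1.42.0 and offsets for length and GC content, with GC content read from annotated transcripts. Total counts of 18926641 to 50137897 per library set the precision. Exact intervals of count ratios and floors cover counting error only, whereas 95% intervals of log2 fold changes come from the edgeR fit and include the spread between libraries. Named genes followed a rule: the 9 receptors, up to 4 genes per list by IL-6 p-value and 2 by genotype p-value, ligands, and the 2 genes most like each receptor. The list of other chemokine receptors leaves out a gene that is not reported here. The members and lists were chosen with earlier results of these data known.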

Additional observations from a re-analysis of the deposited data

Results flagged for a closer look

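The IL-6 response of Cxcr4 differed between genotypes in the test of the difference itself, by -0.6147 on the log2 scale, HET minus WT (edgeR adjusted p = 0.0421), a call that ended in 11 of 17 alternatives. The response was -0.04 in HET, where the lowest and highest of the 4 libraries were 276 CPM with IL-6 and 328 CPM in control, and 0.58 in WT, where both control libraries, at 198 and 224.5 CPM, were below both IL-6 libraries. The WT control libraries also differed most from each other over all genes, with a chi-square per gene of 18.4, against 6.81 in HET IL-6, 6.39 in HET control and 12.6 in WT IL-6. The part of that spread in the Cxcr4 difference was not tested.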

How the results depend on the processing

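Over 63 log2 fold changes of the receptors, 1066 values were recomputed. Of these, 936 kept their side of the threshold, 95 lost a call, 35 gained one and 0 called values changed sign. Among the 936, 40 values changed sign without a call in either fit. Fits that left out 1 library assume that the lone library of a group varies like the other groups. They gave 1 to 4 called receptors for IL-6 in HET, 2 to 5 for IL-6 in WT, 3 to 5 for the average, 0 to 1 for HET against WT in control, 0 to 3 with IL-6, 0 to 4 averaged over treatment, and 0 to 1 for the difference of responses. In the same fits the share of all genes called moved too, in that order over 8.44 to 21.6%, 11.1 to 21.6%, 16.2 to 24.9%, 0.232 to 9.2%, 6.21 to 28.2%, 6.61 to 31.8% and 2.13 to 14.9%. For IL-6 in HET, 5 receptors were called with only the groups compared and 5 with GC and length offsets, an alternative chosen after seeing the data, where 29.9% and 25.4% of all genes were called. Without both HET libraries of number 2, which left 1 library in each HET group, the Cxcr4 difference of responses was -0.58. Without both of number 1 it was -0.64. In both of these fits the Cxcr4 calls in control and for the difference ended. So did the HET against WT calls of Fpr2 with IL-6 and of Ccr1 and C3ar1 averaged over treatment. The calls of Cxcr4 and Ccrl2 for IL-6 averaged over genotype ended there too. GC and length offsets gave 0 calls in all HET against WT comparisons and 0 for the difference. There 4.82% of all genes were called in control, 11.6% with IL-6, 2.38% averaged and 12.5% for the difference. In control, DESeq2 called 2, where 7.8% of all genes were called. With IL-6, HET against WT gave 1 with no filter on low counts and 1 with only the groups compared. There 12.3% and 27.1% of all genes were called. The cause of these moves was not tested. Same-numbered libraries deviated together with r = 0.203 in HET, -0.516 in WT, 0.0265 between the IL-6 groups and -0.103 between the controls, over 9531 genes, so the number was not taken as a pairing. With the replicate block the receptors called were 3, 5, 5, 1, 2, 2 and 1 in the order of comparisons above. The shares of all genes called were 12.6%, 13.1%, 17.7%, 2.47%, 16.7%, 14.3% and 3.69% in that order. The block was also run with WT control numbers crossed, which, like the offsets, was not planned in advance. This crossed block called 6 for IL-6 in WT, 7 for the average, 2 in control and 1 for the difference. In these fits 32.4%, 37.5%, 9.5% and 22.7% of all genes were called. The 1 for the difference was Ccr3, and Cxcr4 lost its calls for IL-6 in WT, the average and the difference there. Fpr1, Fpr2 and Cmklr1, at most 0.620, 2.465 and 2.82 CPM in any library, are limited by depth, and 2 libraries a group limit every test.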

Other observations

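Ccr1 and Ccr3 lie in a run of chemokine receptor genes on chromosome 9 (mm10), and genes of that run, named here for their position after their values were seen, differed in their IL-6 response. In order along the chromosome, the averaged log2 changes were -0.20 ± 0.33 for Cxcr6 (edgeR adjusted p = 0.714), -0.11 ± 0.34 for Xcr1 (0.854), 3.72 ± 0.10 for Ccr1 (6.74e-12), 0.23 ± 0.26 for Ccr1l1 (0.597), 2.13 ± 0.25 for Ccr3 (9.03e-04) and 0.58 ± 0.12 for Ccr2 (0.00608). The called genes among these, Ccr1, Ccr3 and Ccr2, span 123962124 to 124113557, with Ccr1l1, which was not called, inside that span. The genes not called were low, with group means of 0.480 to 0.748 CPM for Cxcr6, 0.307 to 0.580 for Xcr1 and 0.783 to 1.115 for Ccr1l1. Few counts limit what the lack of a call says there. Fpr1 and Fpr2 are likewise neighbours on chromosome 17, next to Fpr3, which had 0 counts in all libraries.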
